A study of Mus musculus with 149 samples.

Results

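The 9 genes described here carry the steps by which hepatocytes make glucose, with 1 regulator of those steps: Pcx, Pck1, Pck2, Fbp1, G6pc, Slc37a4, Gpt, Gpt2 and Ppargc1a. They were chosen by name, all 9 were found among the 20308 mouse genes of the deposited table, and their values were followed across the cells by capture chip and along the order in which the table lists the cells. The table holds 149 single cells isolated as primary hepatocytes from the liver of 1 wildtype male C57BL/6 mouse, 8 weeks old. The liver was perfused and digested, hepatocytes were enriched by low-speed centrifugation, and the cells were kept on ice in medium that contained insulin; no other treatment is labelled and the feeding state is not given in the sources used here. Cells were captured on Fluidigm C1 chips of 3 trap sizes: 80 cells on the large chip (17 to 25 µm), 30 on the medium chip (10 to 17 µm) and 39 on the small chip (5 to 10 µm). Each chip was 1 capture from the same animal, so cells are not replicates of a condition, no p-value is given, and trap size, capture and library quality cannot be told apart.

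Gluconeogenesis runs from pyruvate to free glucose and keeps blood glucose up between meals. Pyruvate carboxylase (Pcx) makes oxaloacetate in mitochondria, phosphoenolpyruvate carboxykinase (cytosolic Pck1, mitochondrial Pck2) turns it into phosphoenolpyruvate, fructose-1,6-bisphosphatase (Fbp1) and glucose-6-phosphatase (G6pc) remove phosphates, and Slc37a4 carries glucose-6-phosphate into the endoplasmic reticulum where G6pc acts. The alanine transaminases Gpt (cytosolic) and Gpt2 (mitochondrial) make pyruvate from alanine, and Ppargc1a encodes PGC-1alpha, a coactivator that is induced in fasting. In the liver lobule, glucose production is known as a periportal function, while the cells around the central vein are known for glycolysis, glutamine synthesis and drug metabolism.

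The promoters of Pck1, G6pc and Fbp1 are shown because these 3 genes varied together over cells in the results that follow, and that of Ppargc1a because it is the regulator among the 9 genes. The sequences are RefSeq promoter windows of build GRCm38.p6, from 250 bases before to 50 bases after the annotated start, written 5′ to 3′ on the strand of the gene. Windows were found for 8 of the 9 genes, 11 windows in all, with 3 for Slc37a4 and 2 for Pcx. Capitals mark the core of the cAMP response element (TGACG, or CGTCA on the other strand) and the TATA box (TATAAA, or TTTATA). The windows lie at chr2:173152823-173153122 on the plus strand for Pck1, chr11:101367466-101367765 on the plus strand for G6pc, chr13:62888233-62888532 on the minus strand for Fbp1 and chr5:51567676-51567975 on the minus strand for Ppargc1a.
Pck1: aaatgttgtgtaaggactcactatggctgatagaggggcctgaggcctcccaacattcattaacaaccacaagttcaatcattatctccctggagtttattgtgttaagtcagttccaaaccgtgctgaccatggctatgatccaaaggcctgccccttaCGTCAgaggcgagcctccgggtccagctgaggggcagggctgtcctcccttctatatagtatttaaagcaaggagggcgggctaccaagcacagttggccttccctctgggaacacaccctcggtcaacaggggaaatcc
G6pc: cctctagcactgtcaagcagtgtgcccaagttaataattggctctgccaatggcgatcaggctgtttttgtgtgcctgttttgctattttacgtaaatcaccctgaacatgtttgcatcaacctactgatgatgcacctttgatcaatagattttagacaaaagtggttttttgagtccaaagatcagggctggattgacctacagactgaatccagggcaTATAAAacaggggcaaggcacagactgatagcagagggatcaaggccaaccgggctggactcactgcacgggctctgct
Fbp1: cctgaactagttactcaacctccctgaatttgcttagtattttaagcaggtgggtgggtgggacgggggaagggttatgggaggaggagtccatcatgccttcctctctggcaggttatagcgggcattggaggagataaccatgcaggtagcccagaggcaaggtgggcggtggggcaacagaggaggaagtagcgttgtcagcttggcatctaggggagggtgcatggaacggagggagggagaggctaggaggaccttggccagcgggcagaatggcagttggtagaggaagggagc
Ppargc1a: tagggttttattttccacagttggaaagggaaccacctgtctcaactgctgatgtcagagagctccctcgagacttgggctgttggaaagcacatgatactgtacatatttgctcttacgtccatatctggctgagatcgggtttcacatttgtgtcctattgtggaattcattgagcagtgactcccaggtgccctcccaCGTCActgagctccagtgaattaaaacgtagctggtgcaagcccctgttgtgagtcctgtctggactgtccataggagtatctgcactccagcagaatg
The Pck1 window held the response element core on the opposite strand from base -90 to -86, counted from the start, and the Ppargc1a window held it on the opposite strand from -49 to -45. The G6pc window held a TATA box from -29 to -24 and, on the opposite strand, a nuclear receptor half-site (AGGTCA) from -54 to -49. It also held a CCAAT box (CCAAT) at 2 places, on the opposite strand from -214 to -210 and on the gene's strand from -204 to -200. The Fbp1 window held neither capitalised motif; it held a CCAAT box on the opposite strand from -124 to -120. Of 32851 promoter windows of the same length, 20.8% held TGACG on either strand, 13.6% TATAAA, 16.3% AGGTCA and 37.4% CCAAT. The letters GTAAACA (a FOXO core, in 3.65% of windows) and AGAACA (a glucocorticoid half-site, in 18.97%) were in none of the 11 windows. In these 4 windows no match overlapped another, and a match is a description of letters only.

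The libraries differed strongly in how much of their signal came from the ERCC spike-in RNA added at lysis. The median spike-in share per cell was 3.66% on the large chip (1.24% to 92.3%), 82.7% on the medium chip and 82.8% on the small chip. The number of genes above 0 had a median of 7389.5, 2306.5 and 3087 on these chips in the same order. A share below 50% was found in 64 large, 7 medium and 12 small cells, called low-spike cells from here on, and results are given for all cells and for these. All 149 cells had 3 or more of 6 hepatocyte markers at a value of 10 or more. In addition, 10 large, 6 medium and 5 small cells had 3 or more markers of another liver cell type at that level, mainly endothelial markers on the large (7 cells) and Kupffer cell markers on the medium chip (4 cells). Levels are normalised expected counts as deposited, and read depth is unknown.

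Pck1, Fbp1 and G6pc were abundant, and the other 6 genes were low or patchy. Per kilobase of exon, so that genes can be compared, the mean level in the large chip was 1374 for Fbp1, 916 for Pck1 and 294 for G6pc. It was 29.4 for Gpt2, 23.3 for Slc37a4, 22.9 for Pcx, 6.77 for Gpt, 3.58 for Ppargc1a and 0.523 for Pck2. The medians per kilobase gave the same order, from 1151 for Fbp1 to 0 for Pck2. In this order only the step from G6pc to Gpt2 was wider than the SD over cells of both neighbours (241 for G6pc and 34.7 for Gpt2, n = 80 cells); for the other 7 neighbouring pairs the larger SD exceeded the gap between the means.

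Pyruvate carboxylase, the entry step, was read in nearly every large cell and in fewer of the others. Pcx (chromosome 19, 4510472 to 4621752, GRCm38, plus strand) ranged from 0 through a median of 30.2 to 1766 in the large chip and was above 0 in 73 of 80 cells (91.3%, exact 95% interval 82.8% to 96.4%). It was above 0 in 15 of 30 medium cells (50.0%, 31.3% to 68.7%; highest 776) and 18 of 39 small cells (46.2%, 30.1% to 62.8%; highest 271). Single cells held much of its signal: cell 71 of the large chip, at 1766, made up 20.3% of that chip's sum. These intervals, like all others here, cover counting of cells only.

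The cytosolic and mitochondrial carboxykinases differed widely. Pck1 (chromosome 2, 173153048 to 173159273, plus strand) was above 0 in all 149 cells, from 13.4 through a median of 2354 to 21923 in the large chip, from 599.9 through 2537 to 7942 on the medium and from 23.3 through 1351 to 9375 on the small chip. The 3 chips overlapped over most of their ranges. The 4 highest large cells, at 10675 to 21923, had spike-in shares of 29.8% to 65.5%, well above that chip's median. Pck2 (chromosome 14, 55540266 to 55551242, plus strand) was above 0 in 16 of 80 large cells (20.0%, 11.9% to 30.4%), at most 158, with cell 12 holding 48.4% of the sum. It was listed at 0 in all 30 medium cells, where the interval reaches up to 11.6%, and was above 0 in 2 of 39 small cells. Exons of Pck2 overlap the antisense gene Gm10876, and whether the authors' counting used strand is not given in the sources used here, so the few Pck2 values cannot be assigned to 1 of these genes.

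Fructose-1,6-bisphosphatase reached levels like those of Pck1 in the large chip and was much lower in the typical small cell. Fbp1 (chromosome 13, 62864753 to 62888282, minus strand) went from 64.7 through a median of 1960 to 18356 in the large chip, from 2.38 through 508 to 6235 on the medium and from 0 through 79.9 to 5198 on the small chip. It was above 0 in all large and medium cells and in 36 of 39 small cells. Among the 12 low-spike small cells, however, its median was 2383, next to 2073 in the 64 low-spike large cells.

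The last steps paired an abundant enzyme with a transporter at a lower level. G6pc (chromosome 11, 101367561 to 101377903, plus strand) went from 0 through a median of 604 to 3302 in the large chip, from 1.83 through 480 to 3750 on the medium and from 1.57 through 165 to 3252 on the small chip. The 1 cell at 0, cell 4 of the large chip, had a spike-in share of 91.3%. Slc37a4 (chromosome 9, 44396852 to 44402968, plus strand) was above 0 in 69 of 80 large, 13 of 30 medium and 12 of 39 small cells, with a median of 41.2 and a highest value of 384 in the large chip and medians of 0 in the other chips.

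Of the alanine transaminases, the mitochondrial form was the more abundant per kilobase in the large chip. Gpt2 (chromosome 8, 85492576 to 85527560, plus strand) was above 0 in 76 of 80 large cells (median 128, highest 1332), 16 of 30 medium cells (median 0.92) and 25 of 39 small cells (median 7.87). Gpt (chromosome 15, 76695716 to 76699686, plus strand) was above 0 in 70 of 80 large cells (median 12.46, highest 154), 14 of 30 medium cells and 15 of 39 small cells. One medium cell, cell 23, had a Gpt value of 4399, or 85.0% of the medium chip's sum; its spike-in share was 72.6% and its Gpt2 value was 0.

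The coactivator was sparse. Ppargc1a (chromosome 5, 51454250 to 51567726, minus strand) was above 0 in 54 of 80 large cells (67.5%, 56.1% to 77.6%), 8 of 30 medium cells and 10 of 39 small cells, with a median of 3.29 in the large chip and 0 in the others. Its highest large values, 590 in cell 24 and 503 in cell 12, were followed by 94.8, and cell 24 alone made up 31.3% of the sum. Cell 24 also had the chip's highest G6pc (3302) and Gpt2 (1332). Its summed signal over all mouse genes was the chip's highest too, at 3.90e+06 beside a median of 1.76e+06. The part of this total in these values was not tested.

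**Figure D1:**
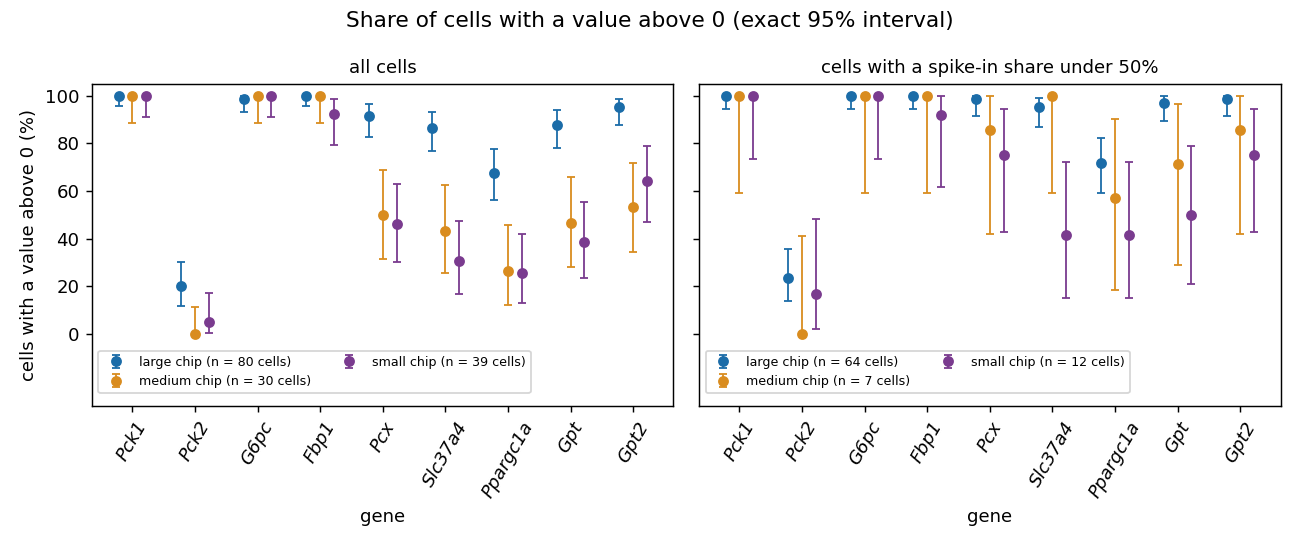
Percent of cells with a value above 0 (y axis) for each gene (x axis) by chip, for all cells on the left and low-spike cells (ERCC share below 50%) on the right; points are shares and bars exact 95% intervals over cells. Pck1 is at 100% in every chip, Pck2 at 20.0% or lower in the left panel, and Pcx, Slc37a4, Ppargc1a, Gpt and Gpt2 lie higher in the large chip in the left panel, with wider intervals for the medium and small chips in the right panel.

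A cell with all of Pcx, Pck1, Fbp1 and G6pc above 0 has a reading, however low, for each of these steps in 1 library. All 4 were above 0 in 73 of 80 large cells (91.3%, 82.8% to 96.4%), 15 of 30 medium cells (50.0%, 31.3% to 68.7%) and 17 of 39 small cells (43.6%, 27.8% to 60.4%). Pcx was the missing step in most other cells: the remaining 3 genes were above 0 without it in 6 large, 15 medium and 19 small cells. The number of the 9 genes above 0 in a cell had a median of 8, 5 and 5 in the 3 chips and correlated with the cell's number of genes above 0 (rho 0.52, 0.74 and 0.58). Among the low-spike cells all 4 steps were above 0 in 63 of 64 large, 6 of 7 medium and 9 of 12 small cells. With a limit of 10 in place of 0, all 4 passed in 62 of 80 large, 12 of 30 medium and 10 of 39 small cells. In low-spike cells they then passed in 54 of 64, 6 of 7 and 6 of 12.

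The order of the columns was read next. The table's name mentions a cell-ordering method, the labels do not say which genes ordered the cells, and the 9 genes may have been among them, so what follows describes the order. In the large chip the order ran from Cyp2f2, a periportal gene, to Cyp2e1, a pericentral gene: Spearman's rho with column position was -0.81 for Cyp2f2, 0.86 for Cyp2e1 and 0.53 for Glul, the glutamine synthetase of cells next to the central vein (n = 80 cells that share 1 chip and animal). Pck1, Fbp1 and G6pc were lower toward the Cyp2e1 end, with rho of -0.67, -0.58 and -0.53. Fewer than 1% of the 9650 genes tested, those above 0 in at least 20% of the cells, had a lower rho than any of these 3: 0.166% for Pck1, 0.477% for Fbp1 and 0.715% for G6pc.

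The other 6 genes had small negative values along the large chip: -0.23 for Pcx, -0.17 for Slc37a4, -0.16 for Ppargc1a, -0.15 for Gpt2, -0.14 for Gpt and -0.13 for Pck2. With a rho of 0.3 in size as the limit, 3 of 9 genes were lower and 0 higher along the order, where 4.55% of all genes tested were lower and 2.15% higher. The median rho was -0.17 for the 9 genes and -0.02 for all genes tested. Among the 64 low-spike large cells the same 3 genes passed the limit (background 6.4%), at -0.78 for Pck1, -0.70 for Fbp1 and -0.63 for G6pc, and the other 6 lay between -0.19 and -0.11. With values under 10 set to 0, Ppargc1a was at -0.36 over all 80 cells and passed the limit too, so that 4 of 9 genes were lower (4.76% of all genes tested). Over all 80 cells, spike-in share itself had a rho of -0.37 with position and the number of genes above 0 a rho of 0.22. In the 64 low-spike cells these were -0.55 and 0.34. Pck1, Fbp1 and G6pc there had a rho of 0.49, 0.54 and 0.44 with spike-in share, whose part in the low-spike values was not tested. Holding the number of genes above 0 constant over all 80 cells left Pck1 at -0.66, G6pc at -0.63 and Fbp1 at -0.60.

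A position that uses none of the 9 genes gave much the same picture in the large chip. The landmark score of a cell was the mean z-score of 6 pericentral genes (Oat, Gulo, Slc1a2, Cyp1a2, Cyp2e1 and Glul) on log2(value + 1) minus that of 5 periportal genes (Hal, Sds, Ass1, Asl and Cyp2f2), and it had a rho of 0.94 with column position. Against it Pck1 had a rho of -0.67, Fbp1 of -0.64 and G6pc of -0.55, and 3 of 9 genes passed the limit where 5.62% of all genes did. In low-spike cells the 3 values were -0.77, -0.75 and -0.59, with the same count of 3 of 9 and a background of 6.09%. The 6 remaining genes lay between -0.24 for Pcx and -0.15 for Ppargc1a over all 80 cells.

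**Figure D2:**
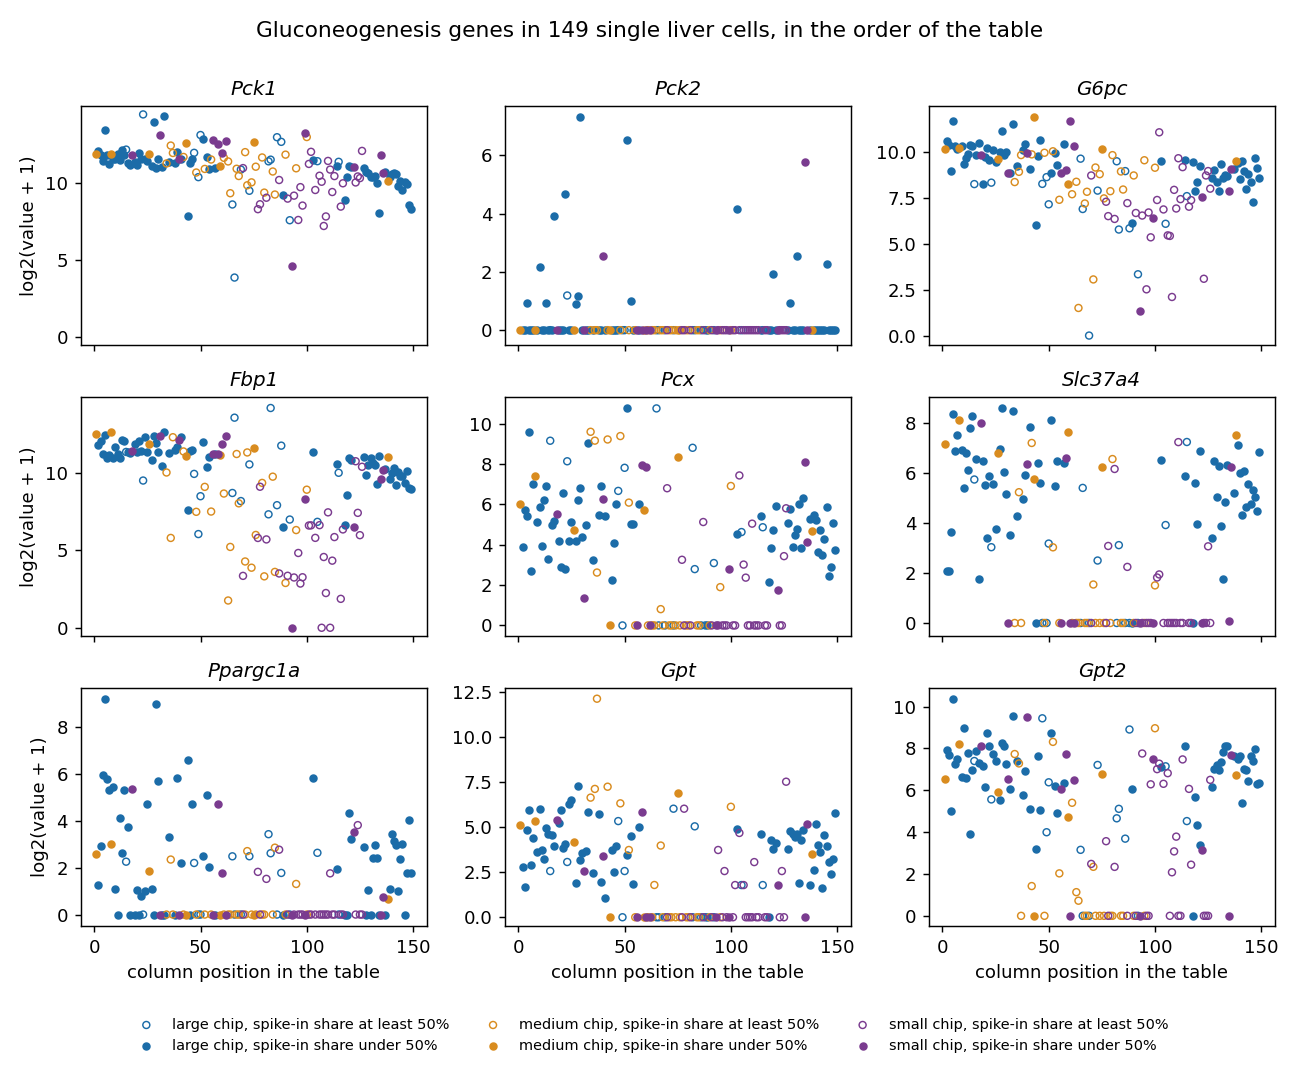
Each point is 1 of 149 cells, with its column position in the table on the x axis and log2(value + 1) on the y axis, for each of the 9 genes; colour marks the chip, filled points are low-spike cells and open points have a spike-in share of at least 50%. The large-chip points of Pck1, Fbp1 and G6pc lie lower at the right end (rho -0.67, -0.58 and -0.53). The middle of the order holds most of the open points and many cells at 0 for the low or patchy genes.

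The size of the change along the large chip was read from 5 consecutive segments of 16 cells. Pck1 went from 2262 through a median of 3269 to 10675 in the first segment and from 259.5 through 1078 to 1619 in the last, so no cell overlapped. The segment means were 3717 ± 1988 and 1058 ± 452 (SD, n = 16 cells each), a 3.51-fold difference. Such a separation held for 0.104% of all genes tested, 10 of 9650.

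Fbp1 went from 1926 through 2594 to 5422 in the first segment and from 497.9 through 953 to 2164 in the last. The means were 3066 ± 1053 and 1013 ± 449, a 3.03-fold difference, and 1 last-segment cell overlapped the first segment. Without the high-spike cells Fbp1 and Pck1 both separated fully, at 3.56-fold and 3.57-fold, where 0.362% of genes did. G6pc went from 300.3 through 1183 to 3302 in the first segment and from 151 through 434 to 805 in the last; its means, 1137 ± 698 and 468 ± 174, differed 2.43-fold and the segments overlapped. For scale, the mean of Cyp2f2 differed 616-fold between the same segments, from 4839 ± 1584 to 7.86 ± 7.26, while the lowest last-segment cells still had 259.5 for Pck1, 497.9 for Fbp1 and 151 for G6pc.

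The profile was not an even slope. Pck1 had its highest mean in the second segment (5908 ± 6811), as did Fbp1 (3293 ± 1557), while the Pck1 median was 2987 there and 3269 in the first segment. The third segment had a median spike-in share of 57.7% and a median of 3327 genes above 0. There G6pc had a median of 421, and Slc37a4 was above 0 in 10, Gpt in 11 and Pcx in 12 of 16 cells, against 16 of 16 for each in the first and last segments. The fourth segment had a median spike-in share of 3.06% and a median of 7260.5 genes above 0, and there G6pc had a median of 324 and Slc37a4 was above 0 in 11, Gpt in 11 and Pcx in 13 of 16 cells. Leaving out any 1 segment kept Pck1 between -0.76 and -0.50, Fbp1 between -0.66 and -0.46 and G6pc between -0.59 and -0.40.

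The low or patchy genes had higher first-segment means with a wide spread over cells. Ppargc1a averaged 54.5 ± 144 in the first segment and 4.59 ± 4.23 in the last, with medians of 9.45 and 4.17. Pcx averaged 123 ± 218 and 29.9 ± 21.97, with medians of 38.2 and 26.3. Slc37a4 averaged 109 ± 102.6 and 46.5 ± 36.9, with medians of 89.8 and 33.9. Gpt2 averaged 243 ± 310 and 167 ± 72.5, and Gpt 21.8 ± 18.5 and 15.8 ± 14.1. In each of these 5 genes the difference was within the larger SD over cells, and nearly all last-segment cells lay inside the range of the first segment. Pck2 was above 0 in 4 of 16 first-segment and 2 of 16 last-segment cells. These genes' rho also rested on the ends of the order: without the first segment Slc37a4 was at 0.02 and Ppargc1a at 0.06, and without the last segment Gpt2 was at -0.41.

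In the medium chip more of the genes were lower along the order, and so were many genes of the table. Of 8 genes (Pck2 was at 0), 6 had a rho of -0.3 or below, from -0.51 for Gpt and -0.48 for Fbp1 to -0.30 for Slc37a4, with Pck1 at -0.36, G6pc at -0.29 and Ppargc1a at -0.13 (n = 30 cells). The background was 24.2% of genes. Against the landmark score 7 of 8 genes passed, with a background of 25.7%. The number of genes above 0 had a rho of -0.41 and the spike-in share of 0.37 with position in this chip. With the number of genes above 0 held constant, 2 of 8 genes passed along the order (Gpt at -0.37 and Fbp1 at -0.31), where 4.26% of all genes did, and 0 of 8 against the score, where 3.48% did. Among the 7 low-spike cells, 3 of 8 genes passed on each axis (Fbp1 at -0.82 on both), with backgrounds of 27% along the order and 27.3% against the score.

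The small chip showed the ends and the middle of the order apart. No gene passed the limit over its 39 cells, on either axis: 0 of 8 genes tested, with backgrounds of 10.5% along the order and 9.51% against the score, and rho of -0.21 for Fbp1, -0.15 for Pck1 and -0.11 for G6pc. Yet the first 8 cells averaged 5076 ± 2320 for Pck1 and 3234 ± 1750 for Fbp1, and the last 7 averaged 2159 ± 1265 and 755 ± 665. The middle segments were lower than both ends for Fbp1, with means of 88.0, 83.4 and 44.6 and median spike-in shares of 86.5%, 87.8% and 90.7%, against 26.6% in the first and 50.4% in the last segment. Among the 12 low-spike small cells, 5 of 8 genes passed along the order, led by Fbp1 at -0.68, with a background of 22.8%. Against the score 4 of 8 passed, led by G6pc and Fbp1 at -0.59, with a background of 18.9%. The part of spike-in share in these medium and small chip values was not tested beyond these subsets.

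**Figure D3:**
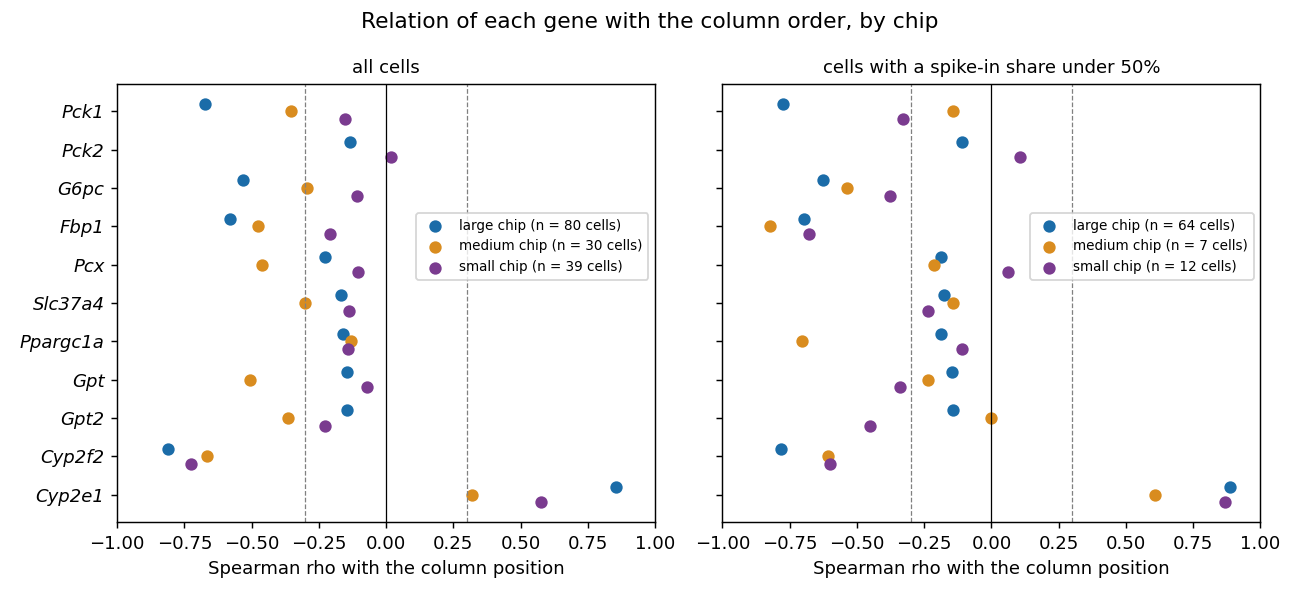
Spearman's rho of each gene with column position, by chip, for all cells and for low-spike cells; dashed lines mark a rho of 0.3 in size. Pck1, Fbp1 and G6pc lie at or below -0.53 in the large chip in both sets, while the medium and small chip values move between the sets.

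The number at the end of each library's identifier forms 2 consecutive runs in each chip, whose meaning is not given in the sources used here. In the large chip both runs gave the 3 genes the same sign and side of the limit: Pck1 at -0.60 and -0.74, G6pc at -0.53 and -0.50 and Fbp1 at -0.45 and -0.72 (42 and 38 cells). In the medium chip they did not: Fbp1 had a rho of -0.83 in the first run and 0.03 in the second, and G6pc of -0.53 and 0.04 (15 cells each). Of all genes tested, 74.7% passed the limit in the first of these medium runs and 5.89% in the second. In the small chip Pck1 had 0.00 in the first run (21 cells) and -0.42 in the second (18 cells).

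Over cells of the large chip the 3 abundant genes also varied with one another. All 36 pairs of the 9 genes had a positive rho, from 0.08 to 0.56 with a median of 0.24, and 11 reached 0.3. Pairs of other genes were not read, so this count has no background, and positive values may be general in these cells. The highest was Pck1 with Fbp1 at 0.56, and G6pc had 0.51 with Fbp1 and 0.43 with Pck1. Among the 64 low-spike cells, these 3 pairs were at 0.84, 0.65 and 0.72, and all 3 genes also followed the order as just described. Some of the low or patchy genes had low values with Pck1, G6pc and Fbp1 in these 64 cells: 0.19, 0.17 and 0.08 for Ppargc1a, 0.18, 0.06 and 0.17 for Pck2, and 0.20, 0.14 and 0.28 for Gpt. The rest of them had higher values: 0.37, 0.37 and 0.44 for Pcx, 0.38, 0.32 and 0.35 for Slc37a4, and 0.25, 0.23 and 0.34 for Gpt2. Ppargc1a was above 0 in 46 of the 64 cells.

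**Figure D4:**
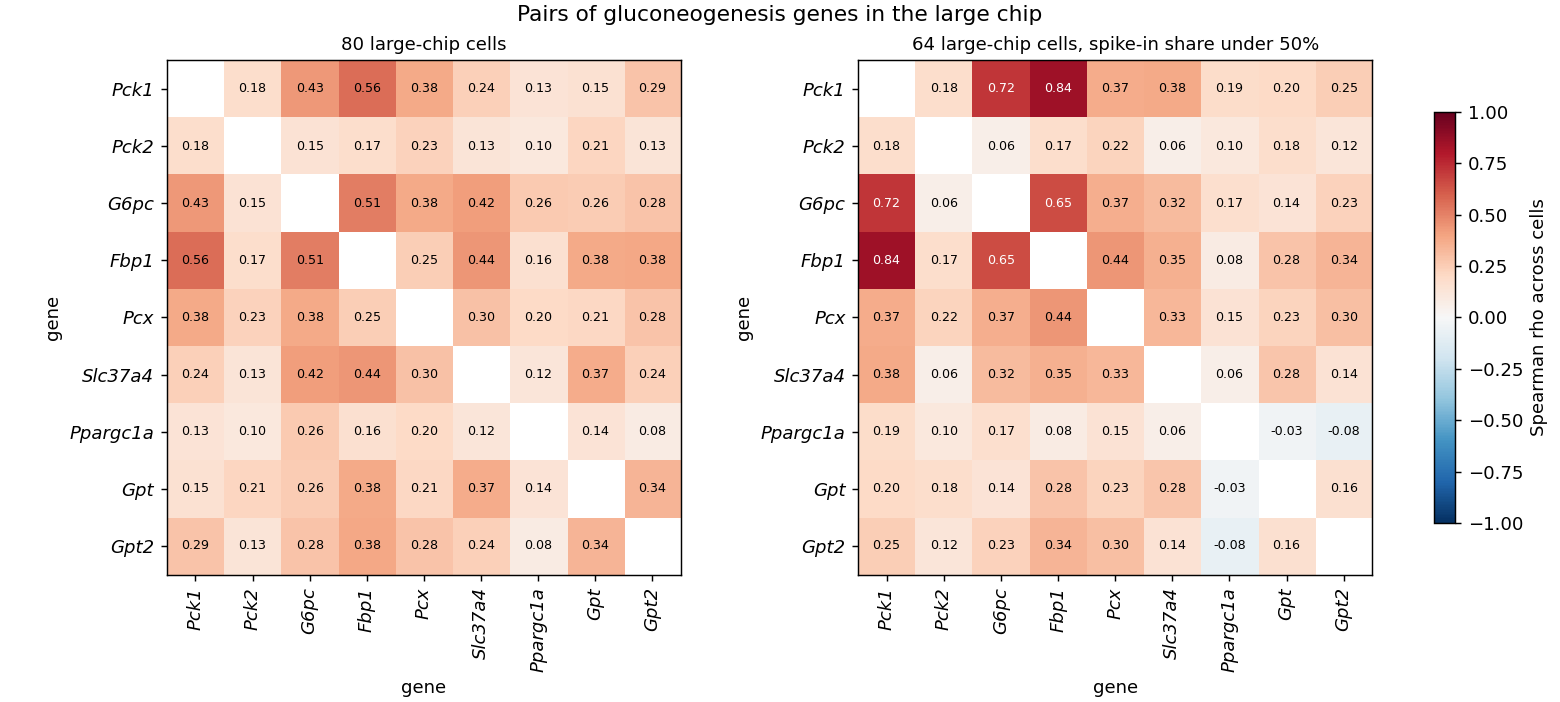
Spearman's rho (colour and printed value) for each pair of the 9 genes over 80 large-chip cells on the left and the 64 low-spike cells on the right. Pck1 with Fbp1 is the highest pair in both panels, at 0.56 and 0.84, and in the right panel the 3 pairs of Pck1, G6pc and Fbp1 are the 3 highest, from 0.65 to 0.84.

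In the other chips the genes appeared to vary together more, and much of this went with library complexity. The median rho of pairs was 0.39 over 28 pairs on the medium and 0.30 over 36 pairs on the small chip. With the number of genes above 0 held constant the medians were 0.11 and 0.16, and 3 and 7 pairs reached 0.3 where 21 and 18 had. These counts too have no background from pairs of other genes, and the cause of the drop was not tested. In the large chip the same step moved the median from 0.24 to 0.23. Pck1 with Fbp1 in the small chip kept 0.61 (0.73 before), and Pcx with Gpt in the medium chip kept 0.81 (0.86 before).

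Mean levels between chips gave no uniform difference for the pathway. The summed signal of a cell over all mouse genes differed too, with medians of 1.76e+06 on the large, 9.67e+05 on the medium and 9.10e+05 on the small chip. The folds that follow are not scaled for it. With 1 added to each mean and a 2-fold limit, Ppargc1a was 11.8-fold and Gpt2 2.56-fold higher in the large than in the medium chip, so 2 of 8 genes were higher, where 37.8% of all genes tested were (Pck2 is left out as listed at 0 in the medium chip). Gpt was 8.29-fold lower in the large chip, 1 of 8 genes where 12.8% of all genes were, and without medium cell 23 its medium mean drops from 172 to 26.7. Against the small chip 5 of 8 genes were higher in the large chip, with a background of 42%: Ppargc1a 6.73-fold, Slc37a4 3.37-fold, Pcx 3.14-fold, Fbp1 2.77-fold and Gpt2 2.15-fold. Pck1 differed 1.10-fold and 1.39-fold and G6pc 1.10-fold and 1.74-fold, inside the limit. In single-cell libraries less RNA per cell and less RNA captured cannot be told apart.

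Each of these 2-fold differences was smaller in low-spike cells. Of the same 8 genes, without Pck2, Ppargc1a was then the 1 gene past 2-fold in both comparisons, at 9.40-fold over the medium and 3.99-fold over the small chip, with backgrounds of 27% and 28.3%. Pck2 was 2.03-fold higher in the large than the small chip over all cells (means of 4.083 and 1.503) and 1.03-fold in low-spike cells. For Ppargc1a, cell 24 alone made up 31.96% of the sum over the 64 low-spike large cells. Fbp1 was 2264 ± 1442 in 64 large, 3593 ± 1719 in 7 medium and 2350 ± 1928 in 12 small cells, so the small-chip difference seen over all cells was not present. Pck1 was 2856 ± 3222, 3834 ± 1945 and 4604 ± 2908 in the same cells, and the SDs over cells exceeded the gaps between the chips.

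Other genes of the pathway were lower along the order in part, as Pck1, Fbp1 and G6pc were. Of 29 further gluconeogenesis and carrier genes, 27 were tested in the large chip, and 8 were lower and 1 higher along the order, where 4.55% and 2.15% of all genes tested were. Among those with the largest rho in size were Gapdh, a glycolytic enzyme that also works in reverse, at -0.50, Tat, a transaminase of tyrosine, at -0.48 and Mdh1, the cytosolic malate dehydrogenase, at -0.46. Gapdh averaged 1768 ± 788 in the first and 890 ± 387 in the last segment, and Tat 2172 ± 1075 and 1162 ± 477. The 1 gene that was higher was the glycerol channel Aqp9, at 0.33 (150 ± 123 and 301 ± 86.9); it lies outside the rule for named genes and was chosen after its value was seen. In low-spike cells, 10 were lower and 2 higher, with backgrounds of 6.4% for lower and 3.93% for higher.

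Among 20 regulators, all tested, 2 were lower and 0 higher along the large-chip order, beside the same backgrounds of 4.55% and 2.15%. Creb3l3, a liver transcription factor, was at -0.45 and averaged 238 ± 104 in the first and 132 ± 65.5 in the last segment. Cebpa was at -0.33, while Hnf4a at -0.28 and Irs1, an insulin receptor substrate, at 0.23 did not reach the limit over all cells. Both passed it in low-spike cells, at -0.34 for Hnf4a and 0.37 for Irs1, where 3 of the 20 regulators were lower and 1 higher (6.4% and 3.93% of all genes). With the number of genes above 0 held constant over all cells, Hnf4a was at -0.35 and Irs1 at 0.12. Of 10 genes of glycolysis, pyruvate oxidation and glycogen synthesis, all tested, 0 were lower and 2 higher, again beside 4.55% and 2.15%. These were Pfkfb1, a bifunctional enzyme that sets the level of fructose-2,6-bisphosphate, at 0.44 (2.55 ± 5.66 and 21.1 ± 30.2) and Pdk4, a kinase that inhibits pyruvate dehydrogenase and so spares pyruvate, at 0.42 (17.6 ± 30.7 and 115 ± 140). Ugp2, an enzyme of glycogen synthesis, at -0.23 and Gckr, the glucokinase regulator, at -0.21 did not reach it.

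The genes whose pattern was most like each abundant member were sought among 7567 genes above 0 in at least 50% of the 64 low-spike large cells. For Pck1 they were Ambp (rho 0.82), Ftcd (0.82) and Apoc2 (0.81). For Fbp1 they included Serpind1 (0.84) and Ambp (0.82). For G6pc they included Hal (0.72) and Acly (0.69). In the 39 small-chip cells, which this choice did not use, these 7 pairs had a rho from 0.19 for G6pc with Acly to 0.56 for Pck1 with Ambp. All points share chip, animal and library complexity.

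Of the summed marker lists of other cell types, 1 passed a rho of 0.3 in size along the large-chip order. The summed bile duct list, all 6 markers of which were matched, went from 0 through a median of 36.3 to 41184 and had a rho of -0.56 with position, led by Sox9 at -0.52, which was above 0 in 58 of 80 cells; Krt7 was above 0 in 70 large cells (highest 157, rho -0.15), Spp1 in 29 (highest 40058, rho -0.25) and Krt19, Epcam and Cldn7 in 1 each. The summed hepatocyte list had a rho of -0.55 in the same direction as Pck1, Fbp1 and G6pc. The endothelial, stellate, Kupffer cell, erythroid and lymphocyte lists had sums with a rho between -0.06 and 0.21. The single endothelial gene Stab2, above 0 in 19 of 80 cells, had a rho of 0.38. The rest of its list lay between 0.01 for Oit3 and 0.28 for Kdr. Of the 5 erythroid markers 4 were at 0 in all large cells, so that sum was Alas2 alone. Without the 10 large cells that held 3 or more markers of another type, Pck1 was at -0.67, Fbp1 at -0.58 and G6pc at -0.51.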

How the data were processed

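The deposited table gives, for 149 single cells, a normalised signal per gene with 2 decimals. Per the submitters' processing notes the authors used CASAVA 1.8.2, Bowtie 0.12.9 and RSEM 1.2.3 with mm10, and the table's name gives SCnorm as the normalisation; the steps between are not given in the sources used here. Of 20400 entries, 92 spike-ins were set apart, and 0 columns were left unused. Cells were grouped by the chip size in the labels. Spearman's rho, means, SDs over cells and exact Clopper-Pearson 95% intervals were computed with Python 3.11.15, numpy 2.4.6, pandas 2.3.3 and scipy 1.17.1, and the rho calculation was tested on simulated data. Genes were compared with all genes above 0 in at least 20% of the cells, with limits of 0.3 for rho and 2-fold for chip means (1 added to each mean). Gene positions and exon lengths are from GENCODE M21, and a gene listed under an older symbol was matched to it. Named genes are the 9 members, Cyp2e1, Cyp2f2 and Glul, up to 4 genes per list with the largest rho in size, and the 3 genes most like each of Pck1, G6pc and Fbp1; 1 gene that this rule names is not reported here. The members and lists were chosen with earlier results of these data known. Alternatives changed the cells used, the scaling of each cell, the treatment of low values, the pseudocount, the kind of correlation and the landmarks.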

Additional observations from a re-analysis of the deposited data

How the results depend on the processing

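In the large chip, 2 to 4 of the 9 genes were lower along the column order or against the landmark score under every alternative run. The share of all genes tested that were lower moved widely between these alternatives. Against the score it went from 1.64% by Pearson's r on log2(value + 1) to 14.1% at a constant number of genes. Along the order it went from 1.81% by the same Pearson's r to 12.8% without the last segment. Pck1, G6pc and Fbp1 passed 0.3 in size in each, except G6pc against the score by Pearson's r on log2(value + 1) (-0.29). The other genes that passed did so in 1 alternative each: Ppargc1a with values under 10 set to 0 (-0.36), Gpt2 without the last segment (-0.41), Pcx in identifier run 2 (-0.35) and Slc37a4 against the score at a constant number of genes (-0.30). Shares in brackets are of all genes tested, lower unless stated. The medium and small chips varied more. Along the order, low-spike cells gave a median rho of -0.22 with 3 genes lower (27%) in the medium chip and -0.33 with 5 (22.8%) in the small chip. Pearson's r on log2(value + 1) gave the small chip -0.29 with 4 genes (26.9%), and on log2(value + 10) -0.33 with 5 (26.2%). Holding the number of genes above 0 constant gave the medium chip -0.17 with 2 genes (4.26%). Against the score the medium chip had -0.24 with 3 genes (27.3%) in low-spike cells, -0.25 with 2 (15.1%) after rescaling each cell, -0.27 with 4 (10.6%) by Pearson's r, -0.17 with 0 (3.48%) at a constant number of genes, and -0.13 with 1 (7.71%) for a score of Cyp2e1 and Cyp2f2 alone; the small chip had 4 genes (18.9%) in low-spike cells and 4 (19.1%) by Pearson's r. The identifier runs, left-out segments and marker-based cell filter were chosen after seeing the data: run 1 gave the medium chip -0.67 (74.7%); run 2 gave it -0.030 with 1 gene (5.89%) and the small chip -0.40 with 5 (49.9%); and leaving out cells with markers of another type gave -0.58 (61.1%) in the medium chip and 2 genes (21.9%) in the small chip. Leaving out a segment is reported above.

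Between chips, the count higher in the large than the medium chip was 1 in low-spike cells (27% of all genes higher), 1 after rescaling (32.3%) and 5 with means of log2 values (62.1%), where Gpt also changed sign (0.78). Low-spike cells also moved the median log2 ratio over the medium chip from 0.37 to -0.43. Pck1 (-0.42), G6pc (-0.64), Fbp1 (-0.67) and Slc37a4 (-0.89) changed sign there, each inside the 2-fold limit. Against the small chip, low-spike cells gave 1 gene (28.3%) and a median log2 ratio of 0.18. Fbp1 (-0.054) and Pck1 (0.48 over all cells, -0.69 in low-spike cells) changed sign there. Means of log2 values gave a median of 2.25 against the small chip. Median rho of pairs was 0.17 (medium) and 0.20 (small) after rescaling, and 0.11 and 0.16 at a constant number of genes. Of the other pathway genes, low-spike cells gave 2 higher gluconeogenesis genes and 1 higher regulator (3.93% higher); a constant number of genes gave 0 higher gluconeogenesis genes (1.39% higher), 5 lower regulators and 1 lower gene of opposing steps (10.8%). The cause of these shifts was not tested. No paired analysis was possible because all cells come from 1 mouse and the cell numbers of the chips only name cells. Read depth is unknown, so a value of 0 cannot be told apart from a transcript that was missed.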
